A study of Mus musculus with 6 samples.

Results

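The genes described here are 8 transporters that carry amino acids across the plasma membrane or help to do so: Slc3a2, Slc7a1, Slc7a5, Slc7a6, Slc1a4, Slc1a5, Slc38a1 and Slc38a2. They were taken from the 55481 rows of the expression table by gene symbol, and each symbol had 1 row. The study sequenced polyA RNA in bulk from tumour cells of squamous cell carcinomas of mouse skin, induced by the carcinogen DMBA with the tumour promoter TPA. Stem-like tumour cells in the submitters' words were high in Itga6 (integrin alpha 6) and positive for CD80, a co-stimulatory ligand (Itga6hi CD80pos). They were compared with cells of low Itga6 that lacked CD80 (Itga6low CD80neg, called differentiated cancer cells). Each of these populations had 2 libraries. A further group, Itga6hi CD80neg, was not analysed here, and the labels used here give neither the mouse strain and age nor the source animal of each replicate. All p-values therefore describe the spread among 4 libraries, which may be technical.

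Amino acid transporters supply growing cells with building blocks for protein and nucleotides, and leucine, arginine and glutamine taken up by them feed the control of the growth kinase complex mTORC1. Slc3a2 encodes the heavy chain 4F2hc or CD98, a glycoprotein without transport activity of its own that brings partner light chains to the cell surface. Slc7a5 (LAT1) and Slc7a6 (y+LAT2) encode such light chains, exchangers of large neutral amino acids and of cationic against neutral amino acids. Slc7a1 (CAT-1) carries arginine and other cationic amino acids without a heavy chain. Slc1a4 (ASCT1) and Slc1a5 (ASCT2) exchange small neutral amino acids, and Slc1a5 also takes glutamine. Slc38a1 (SNAT1) and Slc38a2 (SNAT2) take up neutral amino acids such as glutamine and alanine together with sodium. In mouse epidermis, Slc3a2 is known to support the proliferation of keratinocytes.

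On the deposited TPM values, Slc7a1, Slc7a5, Slc38a2 and Slc3a2 were higher in Itga6hi CD80pos cells, by 24.4, 9.96, 6.50 and 3.11 times on group means. Slc1a4, Slc7a6 and Slc1a5 did not pass the test, and Slc38a1 was under 1 TPM in every library and was not tested. TPM are transcript levels corrected for length and scaled to the same total in each library. Calls come from limma on log2(TPM + 1) at a Benjamini-Hochberg adjusted p under 0.05 over the 13474 genes that reached 1 TPM in 2 or more libraries. Of the 7 transporters tested, 4 were called higher and 0 lower, where 57% of all tested genes were called higher and 9.48% lower. A count of 4 of 7 is thus near the share of all genes. In size, the log2 fold changes of Slc7a1, Slc7a5 and Slc38a2 exceeded those of 99.0%, 96.8% and 92.7% of tested genes, and the ranges of 1 SE around Slc7a5 and Slc38a2 overlapped.

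Most genes lay above 0 on this scale: over all tested genes, log2 fold changes had a median of 1.27. Haemoglobin genes made up 0.0185% and 0.00621% of TPM in Itga6hi CD80pos, against 70.9% and 50.4% in Itga6low CD80neg, and values scaled to a fixed total leave less for all other genes where a few take up most of it. Changes are read here also under 4 other scalings: median-of-ratios scaling, quantile normalization, TPM recomputed without haemoglobin genes, and TPM recomputed without mitochondrial, ribosomal protein, haemoglobin and keratin genes. These brought the median of all tested genes to between 0.16 and 0.39. Calls made under the deposited values and each of these are described as kept, which held for 6.46% of tested genes as higher and 8.3% as lower. Of the transporters, Slc7a5 and Slc7a1 were kept. They were the 2 of 7 called higher without haemoglobin genes, where 7.71% of all genes were, and under median-of-ratios scaling, where 10.2% were.

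The sorted populations also differed in markers of cell types. Of 9 keratinocyte markers, 8 were higher in Itga6hi CD80pos, beside 57% of all tested genes, and 5 were kept, beside 6.46%. Itga6, by which the cells were sorted, was among the 9, so its direction was not independent of the sort. The 9 summed to 46657 and 47144 TPM in Itga6hi CD80pos and 2005 and 5701 TPM in Itga6low CD80neg. They include Krt5, Krt14, Krt1 and Krt10, and their lowest log2 fold change on deposited TPM was 1.80. Whether Itga6low CD80neg cells were the more differentiated was not tested. All 8 fibroblast markers were lower, with sums of 11.9 and 15.2 TPM against 8829 and 5518 TPM. All 7 red blood cell markers were lower too, with sums of 185 and 62.5 TPM against 711095 and 504900 TPM. Of 9 myeloid markers 5 were tested and 2 were lower, with sums of 1077 and 744 TPM against 593 and 2592 TPM. The myeloid marker with the highest TPM in any library was S100a9, and which cells it came from was not tested. All 4 melanocyte markers and both tested skeletal muscle markers were lower as well. These sums and calls are on deposited TPM, where 9.48% of all tested genes were lower. Of the lower calls, 8 fibroblast, 2 myeloid, 3 melanocyte and 2 skeletal muscle markers were kept, beside 8.3% of all genes. The 7 red blood cell markers were kept under the scalings that hold them. The part of these other cells in the transporter values was not tested, and in bulk RNA fewer cells of a type cannot be told apart from less RNA per cell.

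Promoter sequence is shown for the called genes that have an entry, and for Slc1a4, which holds the most motif matches. RefSeq windows on GRCm38.p6, from 250 bases before to 50 bases after a transcript start, matched 5 of the 8 members, with 7 windows in all. Slc7a5, Slc1a5 and Slc38a1 had no window. They were searched on both strands for the E-box CACGTG, the core of the C/EBP-ATF response element TGATGNAA, the GC box GGGCGG, the CCAAT box CCAAT and the TATA box TATAAA, and no matches overlapped in these windows. The stretches below run 5′ to 3′ up to the start site, or to the end of a match that crosses it, with matches in capitals on whichever strand they lie. Slc7a1 is chr5:148399903-148400154, Slc38a2 is chr15:96699729-96699978, Slc3a2 is chr19:8713898-8714147 and Slc1a4 is chr11:20332710-20332963, all on the minus strand.
Slc7a1: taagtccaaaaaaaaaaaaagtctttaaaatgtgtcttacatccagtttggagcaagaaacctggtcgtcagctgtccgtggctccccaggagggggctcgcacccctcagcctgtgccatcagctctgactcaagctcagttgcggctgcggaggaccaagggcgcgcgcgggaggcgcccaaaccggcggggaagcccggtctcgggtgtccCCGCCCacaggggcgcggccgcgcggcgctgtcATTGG
Slc38a2: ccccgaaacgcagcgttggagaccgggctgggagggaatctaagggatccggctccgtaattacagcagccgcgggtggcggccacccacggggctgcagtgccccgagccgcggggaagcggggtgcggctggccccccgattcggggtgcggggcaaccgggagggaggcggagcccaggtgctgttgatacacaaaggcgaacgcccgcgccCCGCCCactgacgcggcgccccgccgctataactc
Slc3a2: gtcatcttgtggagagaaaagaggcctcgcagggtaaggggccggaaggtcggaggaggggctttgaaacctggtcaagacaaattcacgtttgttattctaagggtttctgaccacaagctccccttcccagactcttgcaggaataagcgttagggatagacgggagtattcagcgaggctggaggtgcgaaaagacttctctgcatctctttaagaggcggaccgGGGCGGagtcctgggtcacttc
Slc1a4: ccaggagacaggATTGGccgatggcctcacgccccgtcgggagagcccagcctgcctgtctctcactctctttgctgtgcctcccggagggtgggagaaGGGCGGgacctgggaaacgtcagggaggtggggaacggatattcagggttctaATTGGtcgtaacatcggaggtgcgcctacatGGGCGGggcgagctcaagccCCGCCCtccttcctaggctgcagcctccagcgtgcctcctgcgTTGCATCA

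A GC box, the letters bound by Sp1 and its relatives, was present in a window of each of the 5 matched members, but not in both Slc7a1 windows. The Slc7a6 windows overlap and hold the same site. Counted by window and not by gene, 35.7% of all 32851 windows hold a GC box. It began 36 bases before the start of Slc7a1, 35 before that of Slc38a2 and 22 before that of Slc3a2. The C/EBP-ATF core, a site class used by Atf4 in the response to amino acid shortage, was found in Slc1a4 only, beginning 4 bases before the start. Of all windows 3.97% hold that core. Sequence outside the windows was not searched, so a member without a match may hold one elsewhere. None of the 5 held the E-box bound by Myc, which 7.15% of windows hold, and CCAAT boxes, in 37.4% of windows, were found in Slc7a1 and Slc1a4. A TATA box, present in 13.6% of all windows, was found 28 bases before a further Slc7a1 start that lies 7089 bases inside the GENCODE gene. The Slc3a2 start shown lies 9472 bases inside its GENCODE gene.

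Slc3a2, the shared heavy chain (chromosome 19, 8706882 to 8723369, minus strand, GRCm38), had 171 and 116 TPM in Itga6hi CD80pos, against 44.6 and 47.7 TPM in Itga6low CD80neg. Both Itga6hi CD80pos libraries lay above both others, as they did for 73.5% of all tested genes. The log2 fold change was 1.59 ± 0.39 (SE), with limma adjusted p = 0.0183. That lies only 0.32 above the median of all genes, and the fold change was 0.21 to 0.46 under the other scalings, where Slc3a2 was not called (adjusted p from 0.336 to 0.696). Its place among the tested genes of each library was alike: it exceeded 94.4% and 92.3% of them in Itga6hi CD80pos and 93.5% and 91.2% in Itga6low CD80neg.

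Slc7a5, the LAT1 light chain (chromosome 8, 121881150 to 121907694, minus strand), had 58.7 and 49.6 TPM in Itga6hi CD80pos, against 5.23 and 5.65 TPM in Itga6low CD80neg. Replicates were close in both groups, at 54.2 ± 6.42 TPM and 5.44 ± 0.297 TPM (SD, n = 2 each). The log2 fold change was 3.10 ± 0.30 (SE), with limma adjusted p = 0.00374. It was 1.81 to 2.10 under the other scalings, with adjusted p from 0.0134 to 0.0266. Without haemoglobin genes in the total, the levels were 58.7 and 49.6 TPM in Itga6hi CD80pos and 18.0 and 11.4 TPM in Itga6low CD80neg, so the groups stayed apart. Slc7a5 exceeded 84.6% and 82.7% of tested genes in Itga6hi CD80pos and 56.4% and 53.5% in Itga6low CD80neg.

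Slc7a6, the y+LAT2 light chain (chromosome 8, 106168857 to 106198706, plus strand), had 11.2 and 7.23 TPM in Itga6hi CD80pos, against 6.49 and 3.66 TPM in Itga6low CD80neg. The groups did not overlap but lay close, and the log2 fold change of 0.76 ± 0.39 (SE) did not pass (limma adjusted p = 0.130). It turned to between -0.48 and -0.25 under the other scalings, with adjusted p from 0.579 to 0.760. The light chains thus differed from each other in size of change. Slc7a5 stood at 5.22 and 6.86 times Slc7a6 in Itga6hi CD80pos libraries and at 0.805 and 1.54 times in Itga6low CD80neg libraries.

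Such ratios of TPM within a library are not altered by multiplying the library by 1 factor, though quantile normalization can alter them. Slc3a2 stood at 2.91 and 2.33 times Slc7a5 in Itga6hi CD80pos, against 8.54 and 8.44 times in Itga6low CD80neg. Against the sum of its light chains Slc7a5, Slc7a6, Slc7a7, Slc7a8, Slc7a10 and Slc7a11, Slc3a2 stood at 1.71 and 1.62 times in Itga6hi CD80pos and at 2.69 and 3.68 times in Itga6low CD80neg. Slc7a5 made up 58.7% and 69.2% of that sum in Itga6hi CD80pos and 31.5% and 43.5% in Itga6low CD80neg. In each of these ratios the groups did not overlap, but Slc7a5, already called higher, is part of each. In TPM, groups did not overlap for 73.5% of tested genes in 1 direction and 12.9% in the other. The share over other ratios of genes was not computed. With 2 libraries in each group, the smallest two-sided p of an exact permutation test is 0.333, so ratios and shares are given without a test.

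**Figure D1:**
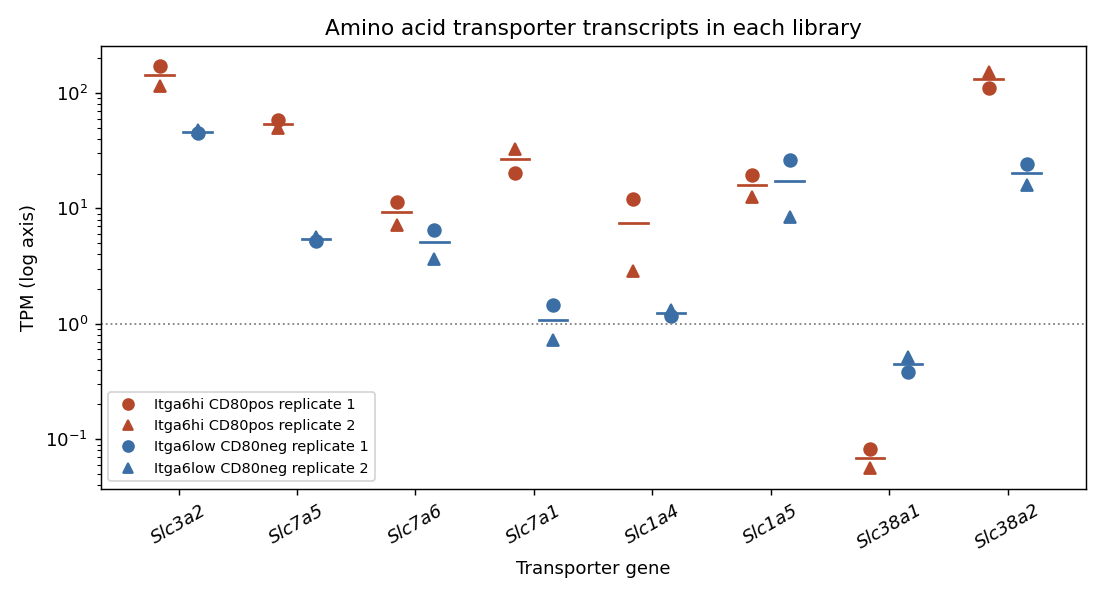
TPM of each transporter gene in each library on a log axis, with circles for replicate 1, triangles for replicate 2, short lines for group means and a dotted line at 1 TPM. Itga6hi CD80pos libraries lie above both Itga6low CD80neg libraries for 6 genes, overlap them for Slc1a5 and lie below them for Slc38a1. Of all tested genes, 73.5% lay above and 12.9% below in this way. Slc38a1 was not tested, and 6 of the 7 tested transporters lay above. So small a count is not read as differing from the share of all genes.

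Slc7a1, the arginine carrier CAT-1 (chromosome 5, 148327410 to 148399904, minus strand), had 20.2 and 33.0 TPM in Itga6hi CD80pos, against 1.46 and 0.718 TPM in Itga6low CD80neg. It was among the lowest of the 8 in Itga6low CD80neg, where only Slc38a1 was clearly lower. By mean it was the fourth highest in Itga6hi CD80pos, where Slc1a5 came close. The log2 fold change was 3.71 ± 0.38 (SE), with limma adjusted p = 0.00405, the highest of the tested members. It was 2.71 to 3.14 under the other scalings, with adjusted p from 0.0199 to 0.0368. Slc7a1 exceeded 63.6% and 75.1% of tested genes in Itga6hi CD80pos and 21.9% and 9.41% in Itga6low CD80neg.

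Slc38a2, the sodium-coupled carrier SNAT2 (chromosome 15, 96687392 to 96699730, minus strand), had 111 and 151 TPM in Itga6hi CD80pos, against 24.4 and 15.9 TPM in Itga6low CD80neg. The log2 fold change was 2.65 ± 0.40 (SE), with limma adjusted p = 0.00649, above those of 92.7% of tested genes. It stayed at 1.26 to 1.55 under the other scalings but was no longer called there (adjusted p from 0.0693 to 0.140). Without haemoglobin genes, Slc38a2 had 111 and 151 TPM in Itga6hi CD80pos and 84.0 and 32.1 TPM in Itga6low CD80neg, where replicate 1 lay nearer to the Itga6hi CD80pos libraries.

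Slc38a1, the paralogue SNAT1 (chromosome 15, 96571418 to 96642913, minus strand), was low throughout, at 0.0827 and 0.0558 TPM in Itga6hi CD80pos and 0.386 and 0.514 TPM in Itga6low CD80neg. Both Itga6hi CD80pos libraries lay below both others, as for 12.9% of tested genes, and the gene was under the filter on low values. Without that filter its log2 fold change was -0.44 ± 0.099 (SE) on the log2(TPM + 1) scale, which understates changes of low genes, and it did not pass (limma adjusted p = 0.0577). Slc38a2 thus held nearly all TPM of this pair, at 1343 and 2709 times Slc38a1 in Itga6hi CD80pos and 63.3 and 31.0 times in Itga6low CD80neg.

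Slc1a5, the glutamine exchanger ASCT2 (chromosome 7, 16781340 to 16798274, plus strand), had 19.5 and 12.5 TPM in Itga6hi CD80pos, against 26.3 and 8.46 TPM in Itga6low CD80neg. The groups overlapped, and replicate 1 of Itga6low CD80neg was the highest library. The log2 fold change was 0.05 ± 0.58 (SE) and did not pass (limma adjusted p = 0.945). It lay between -1.29 and -1.06 under the other scalings without passing (adjusted p from 0.248 to 0.348). Without haemoglobin genes the levels were 19.5 and 12.5 TPM in Itga6hi CD80pos and 90.6 and 17.1 TPM in Itga6low CD80neg, so replicate 1 alone set the mean of Itga6low CD80neg apart.

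Slc1a4, its paralogue ASCT1 (chromosome 11, 20302180 to 20332713, minus strand), had 12.1 and 2.89 TPM in Itga6hi CD80pos, against 1.17 and 1.32 TPM in Itga6low CD80neg. Replicate 1 of Itga6hi CD80pos was far above the other 3 libraries. The log2 fold change of 1.67 ± 0.60 (SE) missed the threshold (limma adjusted p = 0.0534), was 0.79 without that library and 2.54 without replicate 2 of the same group. Under the other scalings it lay between 0.73 and 0.99 (adjusted p from 0.234 to 0.487).

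**Figure D2:**
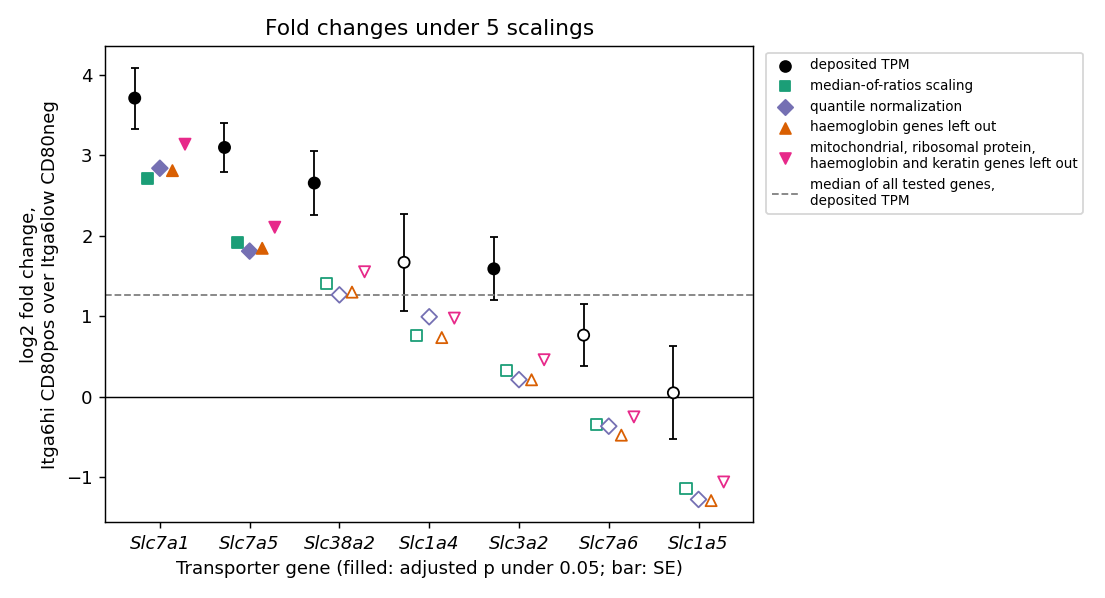
Log2 fold change of the 7 tested transporters, Itga6hi CD80pos over Itga6low CD80neg, on deposited TPM and under 4 other scalings, with filled symbols for adjusted p under 0.05, bars for the SE on deposited TPM and a dashed line at the median of all tested genes, 1.27. Slc7a1 and Slc7a5 stay filled under every scaling shown, and Slc7a6 and Slc1a5 move below 0.

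All 4 calls rested on having both Itga6hi CD80pos libraries. Without replicate 1 of that group the adjusted p was 0.0534 for Slc7a1, 0.0675 for Slc7a5, 0.0805 for Slc38a2 and 0.210 for Slc3a2, and limma called 0 genes in the whole table, although 4442 genes were higher and 1033 lower at an unadjusted p under 0.05. Without replicate 2 the adjusted p was 0.0520, 0.0558, 0.07996 and 0.121 for the same genes. With any 1 library left out, the log2 fold changes ranged from 3.37 to 4.05 for Slc7a1, from 2.98 to 3.21 for Slc7a5, from 2.36 to 2.95 for Slc38a2 and from 1.31 to 1.87 for Slc3a2. The lowest value of Slc3a2 came without Itga6hi CD80pos replicate 1, where the median of all genes was 1.24. Without either Itga6low CD80neg library all 4 calls held. The lists of other genes described next likewise had 0 calls without Itga6hi CD80pos replicate 1, and between 0 and 2 higher and 0 lower calls each without replicate 2.

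The levels of the 8 genes fell into different orders in the populations. In Itga6hi CD80pos, Slc3a2 (143 ± 39.0 TPM) and Slc38a2 (131 ± 28.4 TPM) were highest and did not differ beyond their spread. Slc7a5 followed, then Slc7a1 (26.6 ± 9.002 TPM) and Slc1a5 (15.99 ± 4.91 TPM). Libraries of Slc7a1 and Slc1a5 did not overlap but came as near as 20.2 and 19.5 TPM, so their order was not beyond their spread. Those of Slc7a6 (9.23 ± 2.84 TPM) and Slc1a4 (7.49 ± 6.50 TPM) overlapped (SD, n = 2 each). In Itga6low CD80neg, Slc3a2 (46.2 ± 2.15 TPM) was highest, Slc38a2 (20.2 ± 6.01 TPM) and Slc1a5 (17.4 ± 12.6 TPM) overlapped, as did Slc7a5 and Slc7a6 (5.07 ± 2.01 TPM), and Slc1a4 (1.25 ± 0.105 TPM) overlapped with Slc7a1 (1.09 ± 0.525 TPM).

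Taken as shares of their own summed TPM, which multiplying a library by 1 factor leaves as they are, the make-up of the 8 genes also differed. The sum was 404 and 372 TPM in Itga6hi CD80pos and 110.1 and 83.9 TPM in Itga6low CD80neg. Slc7a5 held 14.5% and 13.3% of it in Itga6hi CD80pos and 4.74% and 6.73% in Itga6low CD80neg. Slc7a1 held 5.02% and 8.86%, against 1.33% and 0.856%, and Slc38a2 held 27.5% and 40.6%, against 22.2% and 19.0%. Slc1a5 went the other way, with 4.82% and 3.36% in Itga6hi CD80pos and 23.9% and 10.1% in Itga6low CD80neg, as did Slc7a6, with 2.78% and 1.94% against 5.90% and 4.36%. Shares of 1 sum depend on each other, so larger shares of some genes lower those of the rest. Slc7a6 took a smaller share in Itga6hi CD80pos although its mean was 9.23 TPM there, against 5.07 TPM. How often shares of other sets of genes separate the groups was not computed. Slc3a2 held 42.3% and 31.1% in Itga6hi CD80pos and 40.5% and 56.8% in Itga6low CD80neg, which overlapped. Among carriers of glutamine, Slc38a2 stood at 5.70 and 12.1 times Slc1a5 in Itga6hi CD80pos, against 0.928 and 1.88 times in Itga6low CD80neg.

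**Figure D3:**
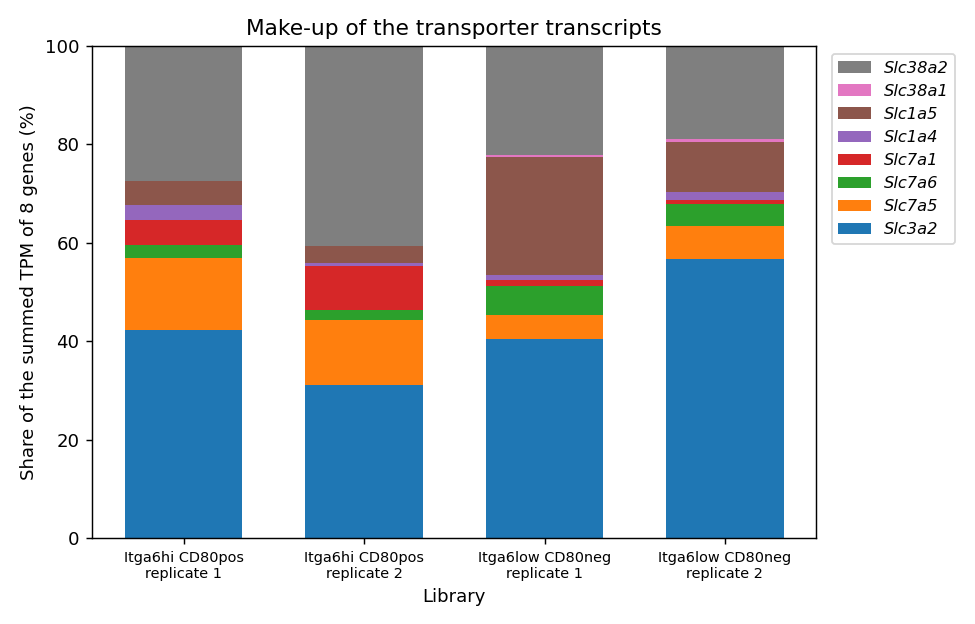
Share of each gene in the summed TPM of the 8 transporters, in percent, 1 bar per library. Slc7a5, Slc7a1 and Slc38a2 take larger shares in both Itga6hi CD80pos libraries, and Slc1a5, Slc7a6 and Slc38a1 take larger shares in both Itga6low CD80neg libraries. The shares in a bar depend on each other, so larger shares of some genes lower those of the rest. How often shares of other sets of genes separate the groups was not computed.

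Other genes listed as amino acid carriers of the plasma membrane went both ways, and where in the cell their proteins act was not tested. Of 38 such genes 17 were tested, 6 were higher and 3 were lower, beside 57% and 9.48% of all tested genes, and their median log2 fold change was 0.56, below the 1.27 of all tested genes. Under the other scalings 1 or 2 were higher and 2 or 3 lower. Slc38a4, a sodium-coupled carrier of the same family as Slc38a2, had 9.80 and 34.5 TPM in Itga6hi CD80pos, against 0.543 and 0.283 TPM in Itga6low CD80neg (log2 fold change 3.80 ± 0.60 SE, limma adjusted p = 0.00691), and was the only higher call kept. With any 1 library left out its adjusted p ranged from 0.0474 to 0.0544, under the threshold only without Itga6hi CD80pos replicate 2. Slc38a6 of that family, the taurine carrier Slc6a6, the neutral amino acid carrier Slc43a2 and the glycine carrier Slc6a9 were higher on deposited TPM, with log2 fold changes of 2.51, 2.16, 2.16 and 1.95, and were not kept. The sixth was Slc7a8, the LAT2 light chain of Slc3a2, at 9.62 and 12.04 TPM against 2.94 and 1.64 TPM (limma adjusted p = 0.00875), chosen after its values were seen.

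The 3 lower genes included Slc6a17, a carrier of neutral amino acids known from neurons, at 0.797 and 0.685 TPM in Itga6hi CD80pos against 5.76 and 5.83 TPM in Itga6low CD80neg. Slc43a1 (LAT3), a carrier of large neutral amino acids also used by red cell precursors, had 0.177 and 0.180 TPM in Itga6hi CD80pos, against 4.56 and 2.54 TPM in Itga6low CD80neg. Both were kept (limma adjusted p = 0.00574 and 0.00781 on deposited TPM), and all 7 red blood cell markers were lower beside them, a part not tested. Slc16a10, a carrier of aromatic amino acids, passed as lower on deposited TPM (limma adjusted p = 0.0413), averaging 0.592 ± 0.137 TPM in Itga6hi CD80pos and 1.80 ± 0.283 TPM in Itga6low CD80neg (SD, n = 2 each), with a log2 fold change of -0.81. Under the other scalings it lay further down, between -1.89 and -1.20, and was called in each except without haemoglobin genes (adjusted p = 0.0526, range 0.0346 to 0.0526). Slc43a1 and Slc16a10 were chosen after their values were seen. Of the genes that did not pass, Slc38a10 had 32.2 and 37.9 TPM in Itga6hi CD80pos and 51.3 and 34.5 TPM in Itga6low CD80neg. Slc7a11, the cystine carrier that pairs with Slc3a2, had 19.8 and 2.19 TPM, against 0.466 and 0.741 TPM, and like Slc1a4 was highest in replicate 1 of Itga6hi CD80pos (limma adjusted p = 0.0585). For Slc7a11 the log2 fold change, 2.35 ± 0.87 (SE), was 0.999 without that library and 3.70 without replicate 2 of the same group, where it passed (adjusted p = 0.0472).

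Genes of lysosomal amino acid transport and of mTORC1 sensing were higher in 23 of 35 tested members, of 37 listed, and lower in 0, beside the 57% of all genes called higher. Their median log2 fold change of 1.43 was close to that of all genes. With haemoglobin genes left out, 2 were called higher. Castor1, the arginine sensor of mTORC1, had 39.5 and 34.001 TPM in Itga6hi CD80pos, against 4.02 and 5.51 TPM in Itga6low CD80neg (log2 fold change 2.72 ± 0.31 SE, limma adjusted p = 0.00466), and was the only member kept. Mtor, the kinase itself, had 16.3 and 21.8 TPM, against 2.06 and 3.37 TPM, and Seh1l, a nucleoporin also found in the GATOR2 complex, had 31.6 and 28.6 TPM, against 3.46 and 6.74 TPM, but neither was kept.

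Enzymes of glutamine, glutamate, asparagine and branched-chain amino acids were higher in 15 of 23 and lower in 2, beside 57% and 9.48% of all tested genes, and 6 to 9 were higher and 1 or 2 lower under the other scalings. Of the calls, 4 higher and 1 lower were kept, beside 6.46% and 8.3% of all genes. Psat1, an aminotransferase of serine synthesis that uses glutamate, had 271 and 144 TPM in Itga6hi CD80pos, against 4.26 and 19.6 TPM in Itga6low CD80neg (log2 fold change 4.25 ± 0.74 SE, limma adjusted p = 0.00814). Gpt, an alanine aminotransferase, had 76.1 and 32.2 TPM, against 2.23 and 1.48 TPM, and Got2, the mitochondrial aspartate aminotransferase, had 264 and 199.8 TPM, against 19.4 and 28.1 TPM, and all 3 were kept. Both lower genes, Bcat1, a branched-chain aminotransferase, and Pycr1, an enzyme of proline synthesis, were chosen after their values were seen. Bcat1 had 0.372 and 0.868 TPM in Itga6hi CD80pos, against 2.10 and 4.37 TPM in Itga6low CD80neg, and was kept. Pycr1 had 2.88 and 2.72 TPM, against 7.80 and 5.26 TPM, and was not.

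Of 16 tested regulators of transporter genes and proteins, 9 were higher and 1 was lower, near the 57% and 9.48% of all tested genes, with 1 of each kept. The balance turned under the other scalings, where 1 or 2 were higher and 3 lower. Hif1a, the hypoxia-inducible factor, had 256 and 231 TPM in Itga6hi CD80pos, against 16.3 and 43.9 TPM in Itga6low CD80neg (limma adjusted p = 0.00828), and was kept. Its relative Epas1 had 32.4 and 17.2 TPM, against 4.996 and 2.26 TPM, and was not. Txnip, an arrestin-domain protein that limits glucose uptake, was lower and kept. It had 3.47 and 14.9 TPM in Itga6hi CD80pos, against 81.3 and 39.9 TPM in Itga6low CD80neg. Its log2 fold change was -2.78, and ranged from -3.70 to -1.87 with any 1 library left out. Without the filter on low values Txnip did not pass (limma adjusted p = 0.0844). Atf4 and Myc, factors known to act on Slc7a5 and Slc3a2, were chosen after their values were seen. Atf4 had 216 and 218 TPM in Itga6hi CD80pos and 94.7 and 141 TPM in Itga6low CD80neg and did not pass (limma adjusted p = 0.114). Myc had 73.0 and 93.5 TPM, against 34.9 and 11.4 TPM, and was called on deposited TPM (limma adjusted p = 0.0291) but under none of the other scalings.

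Surface partners of the Slc3a2 chain, chiefly integrins, were higher in 3 of 7 members and lower in 1, beside 57% and 9.48% of all tested genes. Under each of the other scalings 2 were higher and 1 lower, and these calls were kept, as were 6.46% and 8.3% of all genes. Without Itga6low CD80neg replicate 1, 5 of the 7 were higher. Itga3, the integrin alpha 3 chain of basal keratinocytes, had 47.2 and 179 TPM in Itga6hi CD80pos, against 0.701 and 0.748 TPM in Itga6low CD80neg. Cd44, a hyaluronan receptor, had 160.1 and 167 TPM, against 16.8 and 20.8 TPM. Itgb3, the integrin beta 3 chain, was lower. It had 0.0944 and 0.142 TPM in Itga6hi CD80pos, against 5.43 and 2.85 TPM in Itga6low CD80neg. Keratinocyte markers were higher and fibroblast markers lower beside these genes, and their part was not tested.

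**Figure D4:**
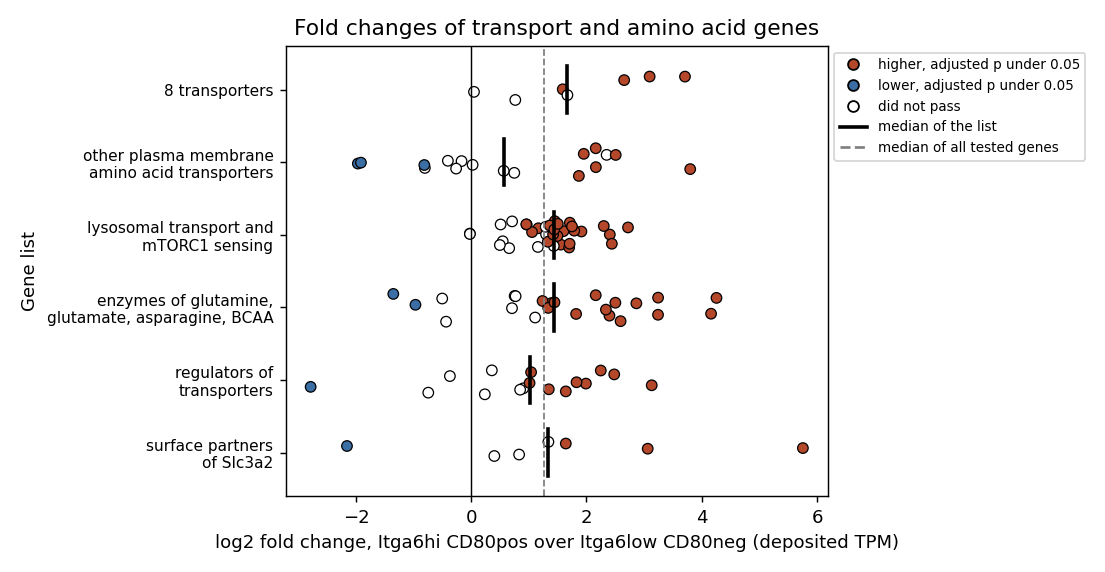
Log2 fold changes on deposited TPM, Itga6hi CD80pos over Itga6low CD80neg, of the tested genes of 6 lists, 1 point per gene with vertical scatter for legibility only, and colour for the call. Black bars mark list medians, the dashed line marks 1.27, the median of all tested genes, and the points of other plasma membrane carriers spread to both sides of 0.

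The genes most like the LAT1 pair in pattern were found by the distance between log2(TPM + 1) profiles centred on their mean over the 4 libraries, among 8379 tested genes averaging 5 TPM or more. Nearest to Slc3a2 were Ints4, at 23.1 and 16.1 TPM in Itga6hi CD80pos against 5.69 and 6.05 TPM in Itga6low CD80neg (distance 0.0515), and Dgkq (distance 0.0552). Nearest to Slc7a5 were Hr, at 104 and 90.3 TPM in Itga6hi CD80pos against 9.60 and 10.6 TPM in Itga6low CD80neg (distance 0.0596), and Nol9 (distance 0.0759). With 4 libraries in 2 groups, many genes lie close to any profile. The distances are on deposited TPM and so include the shift common to most genes. Under the other scalings Ints4 and Dgkq had log2 fold changes between 0.30 and 0.63 and were not called. Hr and Nol9 were called under each of them.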

How the data were processed

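The authors quantified transcripts with kallisto 0.44.0 and named the build mm10, per the submitters' processing notes. They deposited TPM by gene, and each library was found to sum to 1000000. The annotation and any filter are not given in the sources used here. TPM hold no depth, so it is unknown and no counting interval is given. RNA was made into libraries with a low-input kit, per the labels.

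The 13474 genes that reached 1 TPM in 2 or more of 4 libraries were compared on log2(TPM + 1) with limma 3.58.1 in R 4.3.3 (eBayes with trend, two-sided, 2 residual and 3.33 prior degrees of freedom), Benjamini-Hochberg adjusted over all of them. The fit was tested on simulated data with normal noise and few changed genes, as many up as down. That setting lacks the shift common to most genes here, so it does not bear on calls under that shift. Symbols absent from the table for 3101 identifiers were taken from GENCODE M21 (GRCm38), which gave the coordinates too. Median-of-ratios scaling used genes above 0 in all 4 libraries.

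Members, lists, tests and alternatives were chosen with earlier results of these data known. Named genes are the 8 members; of other plasma membrane carriers, the 6 called genes with the largest absolute log2 fold change and the 2 most abundant that did not pass; up to 3 called genes of each other pathway list by absolute fold change; the 2 nearest genes in pattern to Slc3a2 and Slc7a5; and markers, given as sums. GC, CCAAT and TATA boxes were added to the motifs after the promoters were seen. Protein sequences were not used here. Further marker lists had these results: 1 of 2 tested endothelial markers was higher, 3 of 4 pericyte and smooth muscle markers were lower, the 1 tested lymphocyte marker, Trac, was lower, and 0 mast cell and 0 adipocyte markers were tested.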

Additional observations from a re-analysis of the deposited data

How the results depend on the processing

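Slc7a1 and Slc7a5 kept their direction under all alternatives run and their call under all but those that left out an Itga6hi CD80pos library. Genes called higher and lower in the whole table were 1372 and 1610 under median-of-ratios scaling, 1448 and 1517 under quantile normalization, 1039 and 1458 without haemoglobin genes, and 1850 and 1497 without mitochondrial, ribosomal protein, haemoglobin and keratin genes, where each time 2 of the transporters were higher. Over the transporters tested, the median was 0.76, 0.99, 0.73 and 0.98 in these settings, that of Slc1a5 was -1.15, -1.28, -1.29 and -1.06, and that of Slc7a6 was -0.34, -0.37, -0.48 and -0.25. The unfiltered table gave 4564 genes higher, a mean of at least 5 TPM gave 613 lower and a median of 2.12 over the 6 transporters left, and a pseudocount of 0.1 gave a median of 2.17 and called Slc7a11 (limma adjusted p = 0.0449). With 1 library left out, genes called ranged from 0 to 8227 higher and from 0 to 1237 lower, transporters called higher from 0 to 4, and their median from 1.31 to 2.43. Slc1a5 ranged from -0.72 to 0.81, below 0 without Itga6hi CD80pos replicate 1 (-0.25) and without Itga6low CD80neg replicate 2, and Slc38a10 ranged from -0.54 to 0.018, above 0 without Itga6low CD80neg replicate 1. The lone library of a group was then assumed to vary like the other group. Of 26 called genes among the 31 named and tested, 0 and 3 were still called without Itga6hi CD80pos replicate 1 and 2, and 16 to 18 under the other scalings. Replicate numbers were not found to pair the libraries (correlation of deviations 0.109, with only 2 numbers). With replicate number as a block, 8044 genes were higher and 1452 lower, and Slc1a4 and Slc7a11 passed as well (limma adjusted p = 0.000216 and 1.1e-07), with 1 residual degree of freedom and each gene given the spread of the trend. Depth is unknown, so low genes such as Slc38a1 cannot be given a detection limit.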
